A study of Homo sapiens with 6 samples.

Results

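The genes described here encode the chemokines, interleukins and related cytokines that HCCLM3 cells, an established human hepatocellular carcinoma (HCC) line, could secrete. They were chosen by name, as the protein-coding genes of the CXCL, CCL, CX3CL1, XCL and IL series together with IL1RN, LIF, CSF1, CSF2, CSF3, TNF, TSLP and MIF, by a rule on names that uses no measured value. This rule found 71 of the 35856 genes in the table, of which 36 encode chemokines and 35 encode interleukins or other cytokines. The 6 sequenced libraries were made from poly(A)-selected RNA. In 3 of them, named LINC00862, the cells carried a vector for the long non-coding RNA LINC00862, and in the other 3, named Empty (NC in the sample labels), they carried the empty vector. Both groups were thus transfected, and they differed by label in the LINC00862 insert alone. Whether the 3 libraries of a group came from separate cultures or clones is not stated, so p-values measure the spread between these libraries. The comparison asks how the mRNA levels of these signals differed in the hepatoma cells when LINC00862 was overexpressed. These libraries measure RNA and not secreted protein.

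Chemokines are small secreted proteins that bind G protein-coupled receptors and direct the migration of leukocytes along a gradient. CXC chemokines with a Glu-Leu-Arg (ELR) motif bind CXCR2, some of them also CXCR1, and attract neutrophils, whereas CXCL9, CXCL10 and CXCL11 bind CXCR3 and attract activated T cells and natural killer cells, and CC chemokines attract monocytes, eosinophils, dendritic cells and lymphocytes according to the receptor. Many interleukins, though not all, act through receptor families that signal by MyD88 and NF-kappaB, as the IL-1 family does, or by Janus kinases (JAKs) and STAT proteins, as the IL-6, IL-10 and IL-12 families and the common gamma chain cytokines do. In the liver, IL-6 drives the acute-phase response of hepatocytes, and tumor cells of HCC are known to release several of these factors.

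Each library held between 58241123 and 68229070 counts, and 20741 genes passed the filter on low counts and were tested. LINC00862 itself had 11, 21 and 6 counts in Empty and 145, 121 and 76 in LINC00862. Its means were 0.051 FPKM in Empty and 0.449 FPKM in LINC00862, a low level under 1 FPKM in both groups. It was higher by 3.22 on the log2 scale (SE 0.53, adjusted p = 0.000583 edgeR quasi-likelihood test, Benjamini-Hochberg), and by 3.83 without Empty replicate 2. The groups differed widely. Spearman correlations of FPKM were 0.896 to 0.909 within groups and 0.754 to 0.767 between them. The labelled cell type was checked by 10 hepatocyte and hepatoma markers, whose summed level was 196 to 290 FPKM in Empty and 779 to 903 FPKM in LINC00862. Of these, 4 rose and 2 fell. Most of the Empty sum came from the keratin genes KRT18 and KRT8, with Empty means of 153 and 84.5 FPKM. ALB had means of 0.0078 FPKM in Empty and 1.51 FPKM in LINC00862. The sum therefore says little about hepatocyte identity. TTR, GPC3 and APOA2 were at 0 in every Empty library and AFP was at 0 in every LINC00862 library, while the fibrinogen gene FGB had a mean of 1.75 FPKM in Empty and 550 FPKM in LINC00862. Markers of other cells also moved with the groups. The sum of 10 leukocyte markers was 4.34 to 4.68 FPKM in Empty and 10.3 to 16.2 FPKM in LINC00862, with CD14 and CD68 higher and PTPRC, the pan-leukocyte CD45 gene, at means of 0.283 and 0.198 FPKM. The sum of 8 fibroblast markers was 7.58 to 8.80 and 11.8 to 15.8 FPKM, with 2 higher and 2 lower. The sum of 6 endothelial markers was 1.24 to 1.80 and 4.48 to 5.96 FPKM, with CDH5 alone called, and higher. The part of these markers in the results was not tested. In bulk RNA, fewer cells that express a gene and less RNA per cell cannot be told apart.

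Of the 71 cytokine genes, 47 passed the filter and 24 did not. Among those tested, 19 rose and 13 fell in LINC00862, and 15 were not called at an adjusted p under 0.05. The called share of the members was 68.1%, against a background of 64.2% over all tested genes (34.4% higher and 29.8% lower) and 69.1% over protein-coding genes (32.2% higher and 36.9% lower). The share of cytokine genes called was therefore near the background. The median log2 fold change was 0.04 over the tested members and 0.11 over all tested genes, and a fold change is to be read against that general median. Levels did not overlap between the groups for 34 of the 47 members, with LINC00862 higher for 18 and Empty higher for 16. Over all tested genes, this held for 71.1% (34.4% with LINC00862 higher and 36.6% with Empty higher), and over protein-coding genes for 74.9% (30.8% and 44.1%).

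The share called differed with the level of the gene, among the members and over all tested genes. Of the 31 members with a mean of at least 1 FPKM (fragments scaled to transcript length and to the mapped fragments of the library) in at least 1 group, 14 rose, 13 fell and 4 were not called (87.1% called). Of all tested genes at that level, 70.6% were called (32.4% higher and 38.2% lower). Of the 16 tested members below it, 5 rose, none fell by the edgeR test and 11 were not called (31.2% called), against 52.0% of all tested genes there (38.3% higher and 13.7% lower). Whether the members differ from other genes of their level was not tested. Among chemokines, 25 were tested, 11 rose and 5 fell. Among interleukins and other cytokines, 22 were tested, 8 rose and 8 fell. The order of the levels changed with the group. In Empty, MIF had the highest mean FPKM, followed by CCL5, LIF, IL18, CSF1 and IL11. In LINC00862, MIF was again first, followed by CXCL1, CXCL8, CXCL2, CXCL5, LIF and CCL20. The libraries of CSF1 overlapped those of IL18 and IL11 in Empty, and those of CXCL2 and CXCL5 overlapped in LINC00862, so the order of these neighbors is not resolved. The other neighbors named did not overlap.

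**Figure D1:**
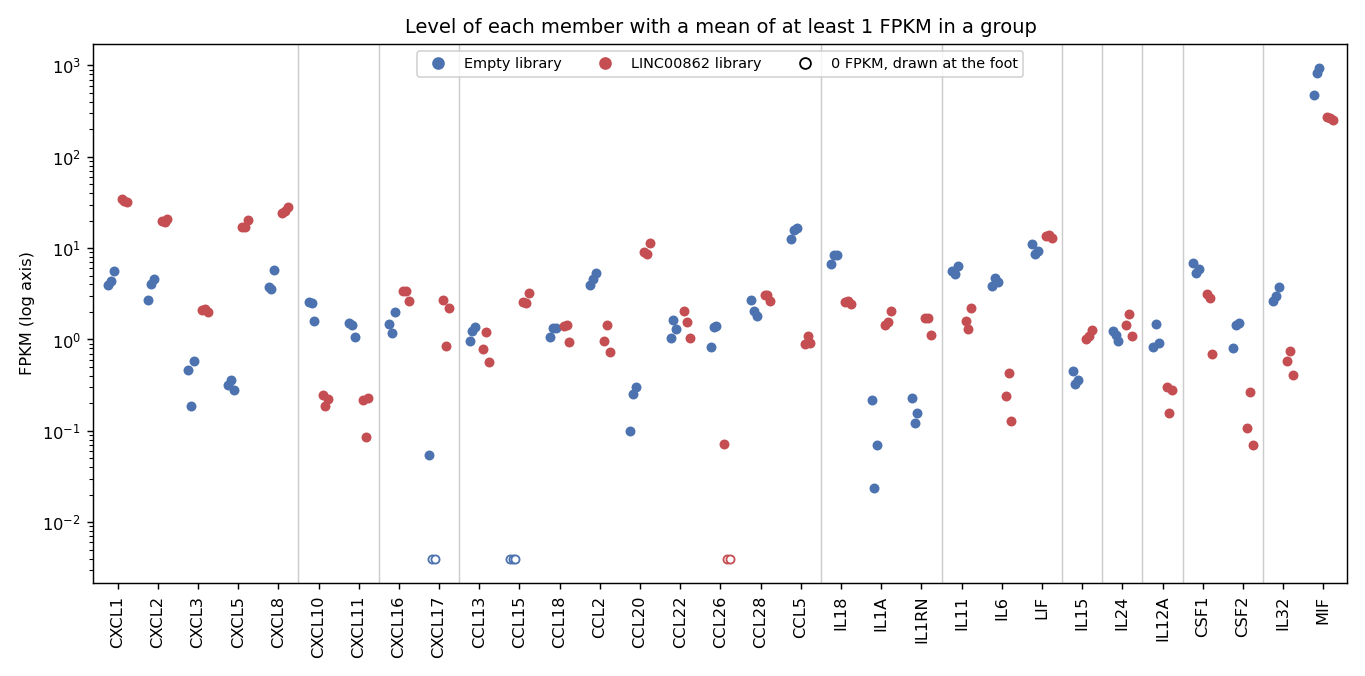
FPKM (log axis) in each of the 3 Empty (blue) and 3 LINC00862 (red) libraries, for the 31 members with a mean of at least 1 FPKM in at least 1 group, ordered by role, with vertical lines between roles and hollow points for 0 FPKM. CXCL1, CXCL2, CXCL3, CXCL5, CXCL8 and CCL20 sit higher in all LINC00862 libraries, and CXCL10, CXCL11, CCL5, IL6 and IL32 sit lower in all of them.

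Of the 6 ELR CXC chemokines within the naming rule, which recruit neutrophils and promote angiogenesis, 5 rose, and the median log2 fold change of the 6 was 2.65. The genes lie in 1 cluster on chromosome 4 that runs over 358.7 kb, from CXCL8 to CXCL2 (chr4:73740541-74099195, coordinates of the deposited table). CXCL1 had 3.91, 4.39 and 5.62 FPKM in Empty and 34.1, 32.8 and 31.6 FPKM in LINC00862. CXCL2 had 2.71, 4.02 and 4.56 FPKM in Empty and 19.9, 19.2 and 20.6 FPKM in LINC00862. CXCL3, the least abundant of the 5, had 0.461, 0.186 and 0.587 FPKM in Empty and 2.09, 2.14 and 2.01 FPKM in LINC00862. For all of these genes the lowest LINC00862 library lay above the highest Empty library, and the LINC00862 libraries lay close together. The log2 fold changes were 2.99 (SE 0.20, adjusted p = 2.4e-06, edgeR) for CXCL1, 2.56 (SE 0.25, adjusted p = 2.19e-05) for CXCL2 and 2.48 (SE 0.40, adjusted p = 0.000546) for CXCL3. CXCL1, CXCL2 and CXCL3 are near-identical paralogs, so reads may have been shared among them. How reads with several matches were counted is not given in the sources used here.

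CXCL8, which encodes interleukin-8, the best-known neutrophil attractant in humans, had 3.77, 3.56 and 5.72 FPKM in Empty and 24.0, 25.6 and 27.9 FPKM in LINC00862. The difference was 2.74 on the log2 scale (SE 0.23, adjusted p = 1.1e-05, edgeR). CXCL5, an epithelial neutrophil attractant, showed the greatest fold within this family. It was at 0.319, 0.361 and 0.278 FPKM in Empty and at 17.2, 16.96 and 20.5 FPKM in LINC00862, a log2 fold change of 5.995 (SE 0.22, adjusted p = 9.19e-08, edgeR). A gene on the opposite strand that overlaps CXCL5, AC097709, had 0 counts in every Empty library and 131, 90 and 110 counts in LINC00862, far below the counts of CXCL5. CXCL6, the closest relative of CXCL5, did not pass the test. It had 9, 33 and 77 counts in Empty and 0, 22 and 0 counts in LINC00862, with a log2 fold change of -2.35 (SE 1.35, adjusted p = 0.157, edgeR), and it was called lower when LINC00862 replicate 2 was left out. The platelet chemokine genes PF4 and PPBP, in the same cluster but outside the naming rule, were not called either (log2 fold changes of 1.49 and 0.50, adjusted p = 0.19 and 0.49, edgeR). PPBP also encodes an ELR chemokine.

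**Figure D2:**
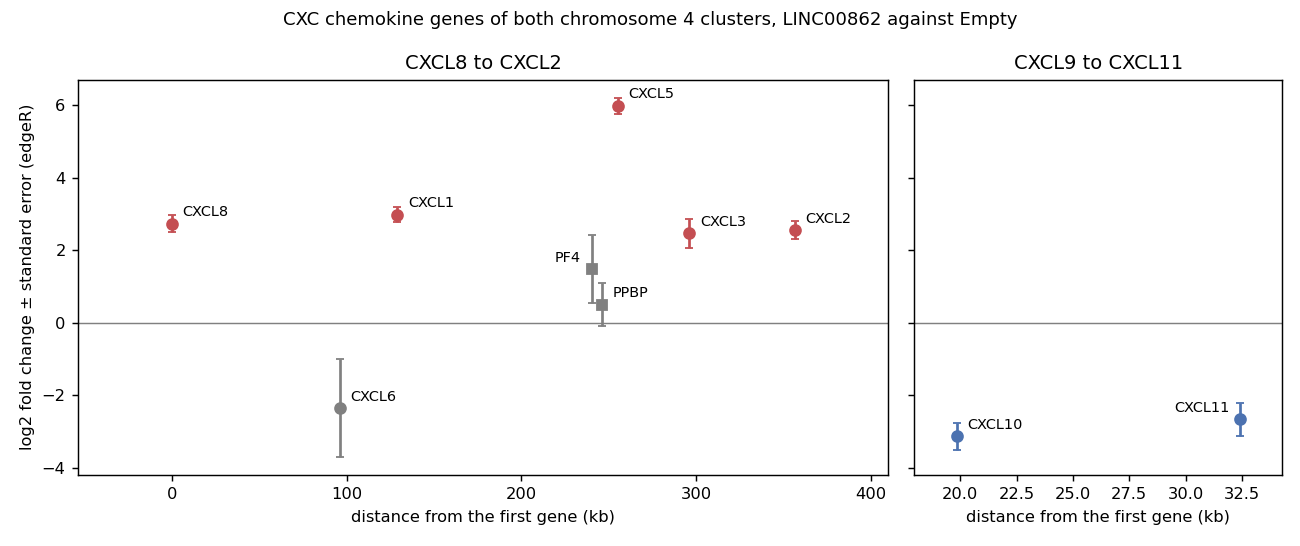
Log2 fold change, LINC00862 against Empty, with its standard error for the tested CXC chemokine genes of both chromosome 4 clusters, placed by distance in kb from the first gene of the cluster (CXCL8 on the left, CXCL9 on the right). Red genes rose, blue genes fell and grey genes were not called, with squares for genes that are not members. CXCL8, CXCL1, CXCL5, CXCL3 and CXCL2 lie between 2.48 and 5.995, while CXCL10 and CXCL11 lie at -3.13 and -2.67.

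The promoters of the ELR members and CXCL10 are shown because 5 of the 6 ELR members, which share a cluster, rose while CXCL10 fell, and the letters near their starts can be set side by side. Each line gives the 250 bases before the transcription start in RefSeq (GRCh38.p14), 5′ to 3′ on the strand of the gene. Capitals mark matches to the kappaB consensus (GGGRNNYYCC), the interferon response core (GAAA repeated after any 2 bases) and the AP-1 site (TGANTCA). In these letters, R is A or G, Y is C or T and N is any base. The windows are chr4:73869143-73869392 (plus strand), chr4:74099196-74099445 (minus), chr4:74038690-74038939 (minus), chr4:73998678-73998927 (minus), chr4:73836428-73836677 (plus), chr4:73740319-73740568 (plus) and chr4:76023498-76023747 (minus). For CXCL3, CXCL6 and CXCL8 the RefSeq start lies 118, 38 and 28 bases from the start in the deposited table, and for the other 4 it is the same base.
CXCL1: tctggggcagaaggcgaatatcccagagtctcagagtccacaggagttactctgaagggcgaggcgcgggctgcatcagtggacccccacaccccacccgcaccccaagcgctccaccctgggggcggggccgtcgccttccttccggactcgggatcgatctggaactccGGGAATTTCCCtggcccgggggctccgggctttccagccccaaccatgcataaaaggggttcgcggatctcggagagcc
CXCL2: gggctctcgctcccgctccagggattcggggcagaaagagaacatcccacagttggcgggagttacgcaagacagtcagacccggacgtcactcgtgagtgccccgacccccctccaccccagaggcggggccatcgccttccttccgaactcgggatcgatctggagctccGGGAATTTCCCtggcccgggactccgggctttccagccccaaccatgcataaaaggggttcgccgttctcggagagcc
CXCL3: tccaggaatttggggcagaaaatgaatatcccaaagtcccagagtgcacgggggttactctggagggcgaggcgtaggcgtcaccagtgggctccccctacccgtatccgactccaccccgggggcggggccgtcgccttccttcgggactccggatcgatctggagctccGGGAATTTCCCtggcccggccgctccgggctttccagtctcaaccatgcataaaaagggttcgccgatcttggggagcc
CXCL5: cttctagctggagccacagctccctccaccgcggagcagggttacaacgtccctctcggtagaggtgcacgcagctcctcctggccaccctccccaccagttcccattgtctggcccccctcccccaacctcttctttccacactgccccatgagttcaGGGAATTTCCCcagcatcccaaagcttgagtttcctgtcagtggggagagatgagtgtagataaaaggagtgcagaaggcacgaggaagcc
CXCL6: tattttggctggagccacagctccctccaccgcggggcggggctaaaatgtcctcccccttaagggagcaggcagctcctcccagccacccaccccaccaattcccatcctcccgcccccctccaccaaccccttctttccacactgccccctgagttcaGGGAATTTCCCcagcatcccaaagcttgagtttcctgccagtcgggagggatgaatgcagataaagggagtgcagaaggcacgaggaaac
CXCL8: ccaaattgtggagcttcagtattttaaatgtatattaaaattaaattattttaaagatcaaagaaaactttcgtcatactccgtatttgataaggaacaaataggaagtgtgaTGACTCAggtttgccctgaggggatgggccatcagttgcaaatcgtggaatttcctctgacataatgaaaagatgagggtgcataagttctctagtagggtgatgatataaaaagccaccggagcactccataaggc
CXCL10: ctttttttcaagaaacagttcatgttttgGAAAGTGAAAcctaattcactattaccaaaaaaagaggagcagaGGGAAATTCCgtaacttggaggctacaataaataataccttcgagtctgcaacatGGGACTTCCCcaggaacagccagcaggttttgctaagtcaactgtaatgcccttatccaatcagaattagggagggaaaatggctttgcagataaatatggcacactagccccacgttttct

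The same 10 bases, GGGAATTTCC, stood 79 to 70 bases upstream of the start in CXCL1 and CXCL3, 78 to 69 bases upstream in CXCL2, 91 to 82 bases upstream in CXCL5 and 90 to 81 bases upstream in CXCL6. Each match also held 1 on the opposite strand, shifted by 1 base, which is why 11 capitals are printed. CXCL6, which was not called, thus carried the same letters as 4 genes that rose. CXCL8 had no match to the consensus in this window. It did hold GGAATTTCC, which is GGGAATTTCC without its first base and which the strict search leaves out. It had an AP-1 match, TGACTCA, 137 to 131 bases upstream and a TATAAA match 31 to 26 bases upstream. CXCL10, which fell, had 2 kappaB matches, GGGAAATTCC at 177 to 168 and GGGACTTCCC at 122 to 113 bases upstream, and an interferon response core match, GAAAGTGAAA, at 221 to 212 bases upstream. A RefSeq window was found for 52 of the 71 members, and for 36 of these the start lay within 100 bases of that in the table. Searched on both strands, the kappaB consensus was in 14 of the 52 member windows (26.9%) and in 9.96% of all 35116 RefSeq windows. It was in 5 of 14 windows of members that rose, 5 of 9 of members that fell, 4 of 12 not called and 0 of 17 not tested. The interferon core was in 4 of 52 member windows (3.02% of all windows), AP-1 in 11 (6.57% of all) and TATAAA in 19 (10.7% of all). These matches describe letters and not bound sites.

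The CXCR3 ligands, which are induced by interferon and attract effector T cells, fell in both tested genes. CXCL10 had 2.56, 2.51 and 1.59 FPKM in Empty and 0.245, 0.189 and 0.224 FPKM in LINC00862, so that every LINC00862 library lay below every Empty library. Its log2 fold change was -3.13 (SE 0.37, adjusted p = 8.33e-05, edgeR). CXCL11 had 1.52, 1.44 and 1.07 FPKM in Empty and 0.218, 0.086 and 0.230 FPKM in LINC00862, again with no overlap, and a log2 fold change of -2.67 (SE 0.44, adjusted p = 0.000654, edgeR). The third ligand, CXCL9, had 11, 4 and 0 counts in Empty and 0, 0 and 4 in LINC00862 and was not tested. These 3 genes lie within 40.14 kb, also on chromosome 4 (chr4:76001275-76041415). Their summed level was 4.14, 3.97 and 2.65 FPKM in Empty and 0.462, 0.275 and 0.475 FPKM in LINC00862.

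Of the remaining CXC chemokines, 3 were tested and all 3 rose. CXCL16, a transmembrane chemokine that is shed from the cell and binds CXCR6, had 1.48, 1.19 and 2.01 FPKM in Empty and 3.40, 3.41 and 2.65 FPKM in LINC00862, without overlap. Its log2 fold change was 1.17 (SE 0.25, adjusted p = 0.00294, edgeR). MED11 overlaps it on the opposite strand, with 697 to 874 counts per library. CXCL17, a mucosal chemokine, had 4, 0 and 0 counts in Empty and 228, 61 and 164 counts in LINC00862 (2.72, 0.842 and 2.22 FPKM). Its log2 fold change was 6.79 (SE 0.94, adjusted p = 0.000221, edgeR), and 10.25 without Empty replicate 1, where Empty had no count and the fitted value depends on the prior count. CXCL14, a chemokine made by epithelia, had no count in Empty and 24, 20 and 22 counts in LINC00862, and was at least 7.84-fold higher (adjusted p = 0.000686, edgeR) against a floor of 3 counts per library. SLC25A48, which overlaps CXCL14 on the opposite strand, had 4, 0 and 0 counts in Empty and 115, 146 and 79 counts in LINC00862. The library protocol marks the strand, but whether the counting used it is not given in the sources used here, so reads of overlapping genes may not have been kept apart.

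The CC chemokines moved in both directions, with 3 of 14 tested genes higher, 3 lower and 8 not called. CCL5 (RANTES), which attracts T cells and monocytes, was the most abundant chemokine of the Empty libraries, at 12.6, 15.98 and 16.7 FPKM. It was at 0.892, 1.10 and 0.913 FPKM in LINC00862, far below every Empty library. The log2 fold change was -3.78 (SE 0.23, adjusted p = 1.35e-06, edgeR). CCL2 (MCP-1), the main monocyte attractant, had 3.91, 4.56 and 5.33 FPKM in Empty and 0.951, 1.45 and 0.736 FPKM in LINC00862. It fell by 1.97 on the log2 scale (SE 0.29, adjusted p = 0.000326, edgeR) without overlap. CCL26 (eotaxin-3), which attracts eosinophils through CCR3, had 39, 64 and 67 counts in Empty and 4, 0 and 0 counts in LINC00862. Its log2 fold change was -5.25 (SE 0.95, adjusted p = 0.00107, edgeR), and -8.78 without LINC00862 replicate 1, where LINC00862 had no count left.

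CCL20, the ligand of CCR6 that attracts immature dendritic cells and Th17 cells, showed the opposite pattern. It was at 0.101, 0.251 and 0.305 FPKM in Empty and at 9.11, 8.63 and 11.2 FPKM in LINC00862. The groups were far apart, with a log2 fold change of 5.55 (SE 0.41, adjusted p = 4.35e-06, edgeR). CCL15, a ligand of CCR1, had no count in any Empty library and 215, 181 and 232 counts in LINC00862 (2.60, 2.53 and 3.20 FPKM), at least 75.1-fold higher (adjusted p = 1.43e-05, edgeR). A readthrough gene that shares its exons, CCL15-CCL14, had 0 counts in Empty and 41, 8 and 22 in LINC00862. CCL28, a mucosal chemokine, had 2.71, 2.06 and 1.83 FPKM in Empty and 3.03, 3.06 and 2.62 FPKM in LINC00862, and the groups overlapped. Its difference of 0.58 (SE 0.18, adjusted p = 0.0174, edgeR) was lost without Empty replicate 2, without LINC00862 replicate 1 or 2, on scaling by library size only and in limma-trend fits of FPKM.

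CCL13, CCL18 and CCL22 were expressed at about 1 FPKM, with overlapping groups, and were not called. CCL13 had 0.967, 1.25 and 1.38 FPKM in Empty and 0.787, 1.21 and 0.561 FPKM in LINC00862 (log2 fold change -0.35, SE 0.41, adjusted p = 0.486, edgeR). CCL18 had 1.06, 1.33 and 1.33 FPKM in Empty and 1.40, 1.45 and 0.931 FPKM in LINC00862 (0.19, SE 0.31, adjusted p = 0.626). CCL22 had 1.03, 1.63 and 1.31 FPKM in Empty and 2.05, 1.56 and 1.03 FPKM in LINC00862 (0.38, SE 0.31, adjusted p = 0.319). On chromosome 17, CCL2, CCL5 and CCL15 lie within the same interval (chr17:34255218-36105621) but changed in different directions.

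Summed over each role, the 6 ELR chemokines had 11.2, 12.8 and 17.3 FPKM in Empty and 97.2, 96.9 and 103.0 FPKM in LINC00862. The 20 CC chemokines had 24.7, 29.8 and 31.2 FPKM in Empty and 22.0, 22.4 and 22.1 FPKM in LINC00862. The summed level of all 36 chemokines was 41.6, 47.7 and 53.2 FPKM in Empty and 126, 124 and 130 FPKM in LINC00862. The ELR chemokines made up 27.0%, 26.8% and 32.5% of this sum in Empty and 77.2%, 78.1% and 78.7% in LINC00862. CCL5 made up 30.3%, 33.5% and 31.3% in Empty and 0.709%, 0.887% and 0.700% in LINC00862. CCL5 and the ELR group together thus held most of the sum in Empty, and the ELR group alone held most of it in LINC00862. Shares within a sum move together, so they are not separate results.

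**Figure D3:**
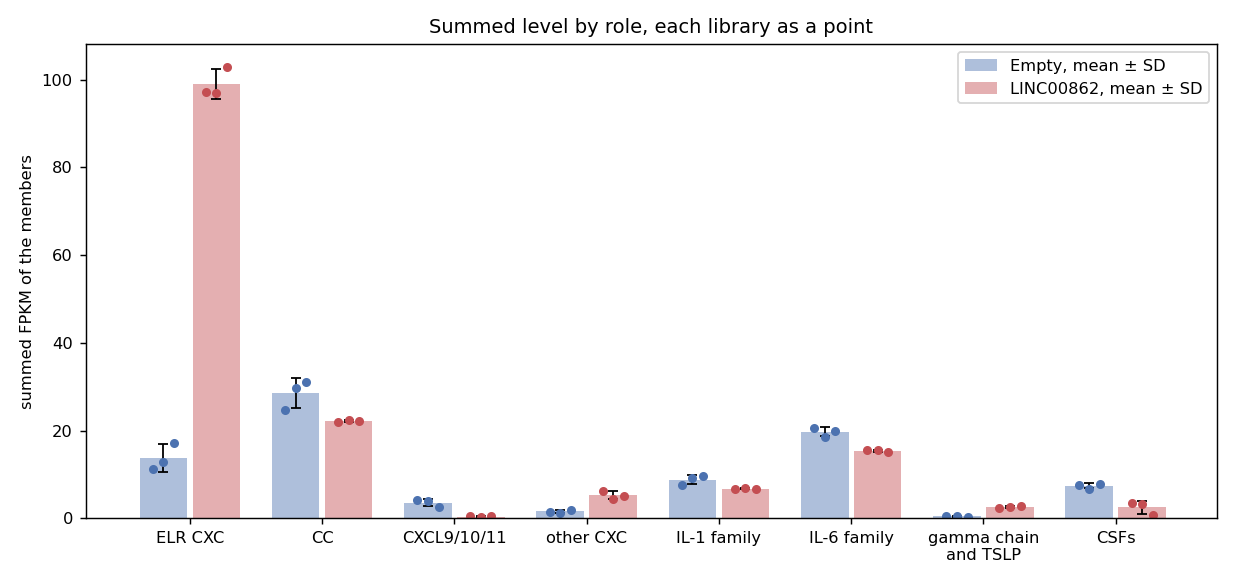
Summed FPKM of the members of 8 roles in Empty (blue) and LINC00862 (red), with bars for the mean, error bars for the SD over 3 libraries and points for the libraries. The ELR CXC sum lies between 11.2 and 17.3 in Empty and between 96.9 and 103.0 in LINC00862, and the other sums drawn differ by far less. Not every role is drawn. The role that holds MIF is left out, with sums of 478, 821 and 929 in Empty and 275, 265 and 252 in LINC00862.

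In the IL-1 family, 3 of 5 tested genes rose and 1 fell. IL1A, the alarmin that activates the IL-1 receptor, had 0.219, 0.024 and 0.070 FPKM in Empty and 1.43, 1.55 and 2.05 FPKM in LINC00862. It was higher in every LINC00862 library, by 4.14 on the log2 scale (SE 0.60, adjusted p = 0.00029, edgeR), and by 5.11 without Empty replicate 1. IL1RN, which encodes the natural antagonist of the same receptor, had 0.230, 0.121 and 0.158 FPKM in Empty and 1.73, 1.73 and 1.11 FPKM in LINC00862. Its log2 fold change was 3.31 (SE 0.33, adjusted p = 3.07e-05, edgeR), so an agonist and the antagonist of IL1R1 both rose. IL36B, an agonist of the IL-36 receptor, had no count in Empty and 102, 88 and 105 counts in LINC00862, at least 35.2-fold higher (adjusted p = 4.84e-05, edgeR). IL1A, IL36B and IL1RN lie in the IL-1 gene cluster of chromosome 2 (chr2:112773925-113134016). IL1B, in the same cluster, was not called (log2 fold change -0.68, SE 0.38, adjusted p = 0.145, edgeR). IL18, an activator of interferon gamma release, had 6.76, 8.50 and 8.46 FPKM in Empty and 2.55, 2.66 and 2.45 FPKM in LINC00862. It fell by 1.46 on the log2 scale (SE 0.19, adjusted p = 0.000141, edgeR), with wide separation of the groups.

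The 3 tested members of the IL-6 family all signal through gp130, encoded by IL6ST, and they did not move together. IL6, the driver of the acute-phase response, had 3.87, 4.73 and 4.29 FPKM in Empty and 0.238, 0.433 and 0.129 FPKM in LINC00862. Every LINC00862 library lay below every Empty library, with a log2 fold change of -3.81 (SE 0.39, adjusted p = 3.56e-05, edgeR). The antisense gene IL6-AS1 had 22, 34 and 16 counts in Empty and 0, 0 and 4 in LINC00862. IL11, a cytokine of fibrosis and platelet production, had 5.62, 5.16 and 6.41 FPKM in Empty and 1.59, 1.31 and 2.19 FPKM in LINC00862. It fell by 1.56 on the log2 scale (SE 0.26, adjusted p = 0.000686, edgeR) without overlap. LIF, which signals through LIFR and gp130, was the most abundant of the 3 in both groups, at 11.1, 8.62 and 9.30 FPKM in Empty and 13.6, 13.7 and 12.9 FPKM in LINC00862. It was higher by 0.65 (SE 0.13, adjusted p = 0.002, edgeR), a small difference without overlap between the groups. LIF passed no test against a fold change of 2. The summed family level was 18.6 to 20.6 FPKM in Empty and 15.2 to 15.5 FPKM in LINC00862.

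IL15, IL7 and TSLP, which support lymphocytes and, for TSLP, dendritic cells, all rose, and they were the tested members of the common gamma chain and TSLP group. IL15 had 0.453, 0.329 and 0.360 FPKM in Empty and 1.01, 1.10 and 1.26 FPKM in LINC00862, with a log2 fold change of 1.73 (SE 0.23, adjusted p = 0.000168, edgeR). IL7 had 21, 27 and 4 counts in Empty and 179, 163 and 136 counts in LINC00862 (log2 fold change 3.29, SE 0.57, adjusted p = 0.000878, edgeR). Several genes overlap IL7. Of these, AC083837 on the opposite strand had 0, 0 and 3 counts in Empty and 133, 88 and 63 in LINC00862, and ZC2HC1A had 318 to 552 counts per library. TSLP, an epithelial alarmin, had 0, 5 and 0 counts in Empty and 219, 246 and 221 counts in LINC00862. Its log2 fold change was 7.09 (SE 0.82, adjusted p = 6.85e-05, edgeR), and 10.90 without Empty replicate 2, where Empty had no count. The summed level of this group was 0.638, 0.464 and 0.376 FPKM in Empty and 2.40, 2.69 and 2.73 FPKM in LINC00862, so these transcripts stayed scarce beside the ELR chemokines.

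In the IL-10 family, IL20, which acts on epithelial cells, had no count in Empty and 42, 11 and 14 counts in LINC00862. It was at least 7.63-fold higher (adjusted p = 0.00181, edgeR), and its fitted log2 value moved from 7.49 to 6.78 without LINC00862 replicate 1. IL24, a neighbor of IL20 on chromosome 1 with anti-tumor activity in many cell models, had 1.24, 1.11 and 0.971 FPKM in Empty and 1.45, 1.89 and 1.10 FPKM in LINC00862. The groups overlapped and the difference of 0.58 was not called (SE 0.28, adjusted p = 0.0991, edgeR), although it was called by DESeq2 and on upper quartile scaling. FCMR overlaps IL24 on the opposite strand, with 527 to 619 counts in Empty and 259 to 353 in LINC00862. In the IL-12 family, IL12A, which encodes the p35 chain shared by IL-12 and IL-35, had 0.837, 1.47 and 0.924 FPKM in Empty and 0.299, 0.155 and 0.279 FPKM in LINC00862. It fell by 1.93 on the log2 scale (SE 0.43, adjusted p = 0.0036, edgeR) without overlap. IL12B, which encodes the p40 partner chain, was not tested.

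Both colony-stimulating factors that were called fell. CSF1, the growth factor of macrophages, had 6.84, 5.37 and 5.95 FPKM in Empty and 3.17, 2.84 and 0.696 FPKM in LINC00862. LINC00862 replicate 3 was far below the other two, and all LINC00862 libraries lay below Empty. The log2 fold change was -1.29 (SE 0.42, adjusted p = 0.0245, edgeR), and the adjusted p was 0.0511 without Empty replicate 1. CSF2 (GM-CSF), a growth factor of granulocytes and macrophages, had 0.805, 1.43 and 1.53 FPKM in Empty and 0.106, 0.265 and 0.070 FPKM in LINC00862. It fell by 2.90 on the log2 scale (SE 0.59, adjusted p = 0.00218, edgeR), and by 3.50 without LINC00862 replicate 2.

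MIF, a ligand of CD74 that limits the random migration of macrophages, was the most abundant member by far. It had 475, 817 and 925 FPKM in Empty and 274, 264 and 251 FPKM in LINC00862, with the lowest Empty library still above every LINC00862 library. The fall was 1.34 on the log2 scale (SE 0.26, adjusted p = 0.00177, edgeR). MIF-AS1, on the opposite strand, had 1722, 2328 and 2715 counts in Empty and 972, 814 and 770 in LINC00862. IL32, a proinflammatory cytokine of primates, had 2.66, 3.03 and 3.73 FPKM in Empty and 0.575, 0.757 and 0.405 FPKM in LINC00862. It fell by 2.25 on the log2 scale (SE 0.28, adjusted p = 0.00012, edgeR), with no overlap. Since MIF outweighed all other members, the summed FPKM of the 71 genes was 559, 907 and 1020 in Empty and 432, 421 and 410 in LINC00862, while the sum without MIF was 84.3, 89.7 and 97.8 in Empty and 158, 157 and 159 in LINC00862.

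**Figure D4:**
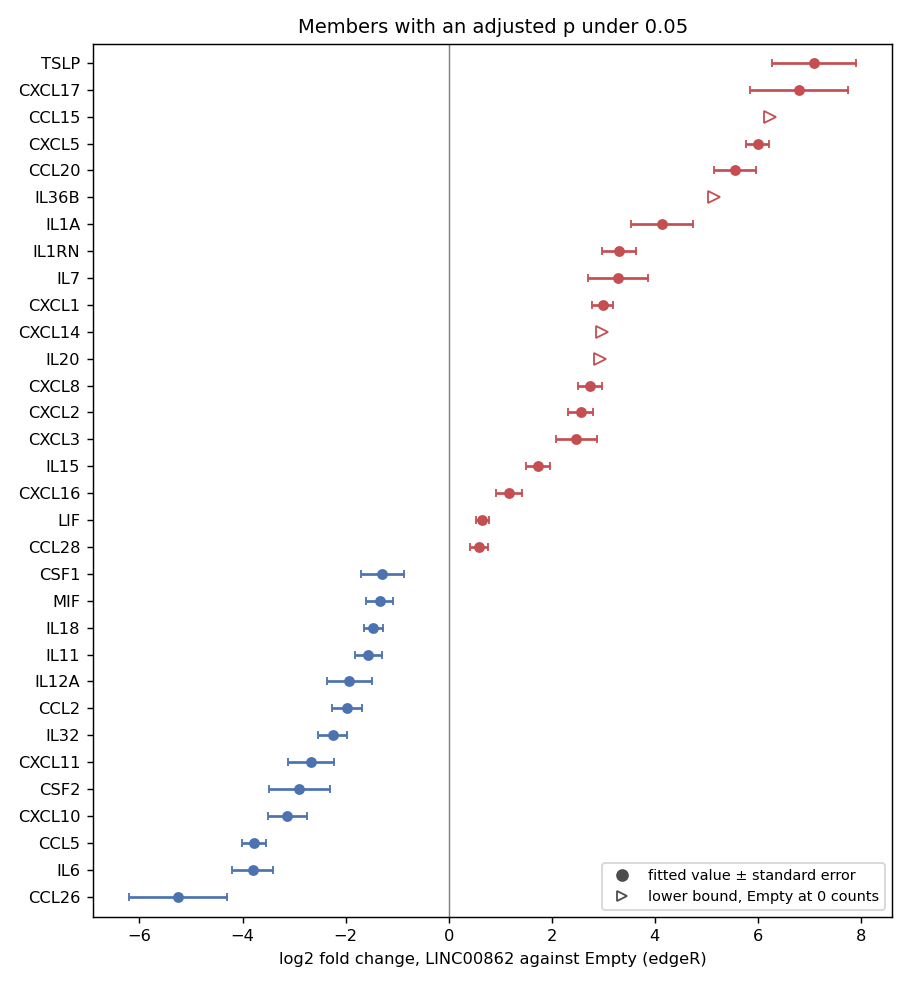
Log2 fold change, LINC00862 against Empty, of the 32 members with an adjusted p under 0.05, in order of size, with points and standard errors from edgeR and open triangles for lower bounds where Empty had no count. TSLP, CXCL17, CCL15, CXCL5 and CCL20 stand at the top, and CCL26, IL6 and CCL5 at the bottom.

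The other tested members lay below 1 FPKM in both groups and were not called. They were CCL3, CCL4, CCL17, CCL23, CCL24, CXCL6, IL1B, IL16, IL17D, IL23A and CSF3. Of these, CCL3, CCL17 and IL1B were lower in every LINC00862 library and were called by limma-trend on FPKM but not by edgeR. IL16 overlaps STARD5 on the opposite strand, with 558 to 1285 counts of STARD5 per library. The 24 members that did not pass the filter were CCL7, CCL8, CCL14, CCL19, CCL25, CCL27, CX3CL1, XCL1, CXCL9, CXCL12, CXCL13, IL4, IL5, IL10, IL12B, IL13, IL19, IL26, IL27, IL31, IL33, IL34, IL37 and TNF. These were too low to pass the filter at this depth. They included TNF, at 0.054, 0.027 and 0 FPKM in Empty and 0.270, 0.058 and 0.181 FPKM in LINC00862, CXCL12, the ligand of CXCR4, and the type 2 cytokines IL4, IL5 and IL13.

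The receptors of these ligands were read in the same cells from a list of 67 genes in the table, of which 53 were tested. Of these, 22 rose, 13 fell and 18 were not called (66.0% called), with a median log2 fold change of 0.26 against 0.11 over all tested genes. The greatest rises among receptors at or above 1 FPKM were in IL1R2, the decoy receptor of IL-1 (mean of 0.031 FPKM in Empty and 9.64 in LINC00862, log2 fold change 8.21, SE 0.43), CRLF2, the TSLP receptor chain (0.032 and 1.65 FPKM, 5.64, SE 0.76), CCRL2, an atypical receptor that binds chemerin (0.054 and 2.53 FPKM, 5.58, SE 0.49), and IL1R1, the signaling receptor of IL-1 (0.180 and 3.07 FPKM, 4.30, SE 0.42). With single libraries left out these values moved to 9.22 for IL1R2 (without Empty replicate 2), 5.04 and 6.85 for CRLF2 (without Empty replicates 1 and 3), 6.25 for CCRL2 (without Empty replicate 3) and 4.93 for IL1R1 (without Empty replicate 1), and the calls were kept. TSLP rose together with CRLF2, while IL7R, the other chain of the TSLP receptor and the receptor of IL-7, fell. IL7R had 15.0, 8.46 and 8.16 FPKM in Empty and 0.673, 0.664 and 0.583 FPKM in LINC00862, a log2 fold change of -3.84 (SE 0.23, adjusted p = 1.26e-06, edgeR).

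The other great falls were in ACKR3, the scavenger receptor of CXCL11 and CXCL12 (6.40 and 0.224 FPKM, log2 fold change -4.64, SE 0.26), CD44, the co-receptor of CD74 for MIF (30.6 and 2.97 FPKM, -3.19, SE 0.15), and IL27RA (1.79 and 0.185 FPKM, -3.08, SE 0.40). Further receptors were looked up because their ligands had changed, after their values were seen. CXCR1 and CXCR2, the receptors of the ELR chemokines, were not tested and had means of at most 0.042 FPKM, and CXCR3 had means of 0.043 and 0.067 FPKM. IL6R was at 1.21, 0.498 and 0.707 FPKM in Empty and at 10.3, 10.96 and 9.90 FPKM in LINC00862, and rose by 3.88 (SE 0.28, adjusted p = 3.55e-06, edgeR). IL6ST had 30.7, 16.4 and 13.5 FPKM in Empty and 5.08, 5.44 and 4.53 FPKM in LINC00862 and fell by 1.81 on the log2 scale (SE 0.25, adjusted p = 0.000216, edgeR). IL11RA fell by 1.37 (SE 0.29) together with its ligand IL11, and LIFR was higher by 1.05 (SE 0.31) with overlapping libraries. IL1RAP, the co-receptor of IL1R1, fell by 2.45 on the log2 scale (SE 0.29). CSF1R, the receptor of CSF1, had means of 0.102 and 0.063 FPKM and was not called, and CD74 had means of 1.27 and 1.05 FPKM and was not called.

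**Figure D5:**
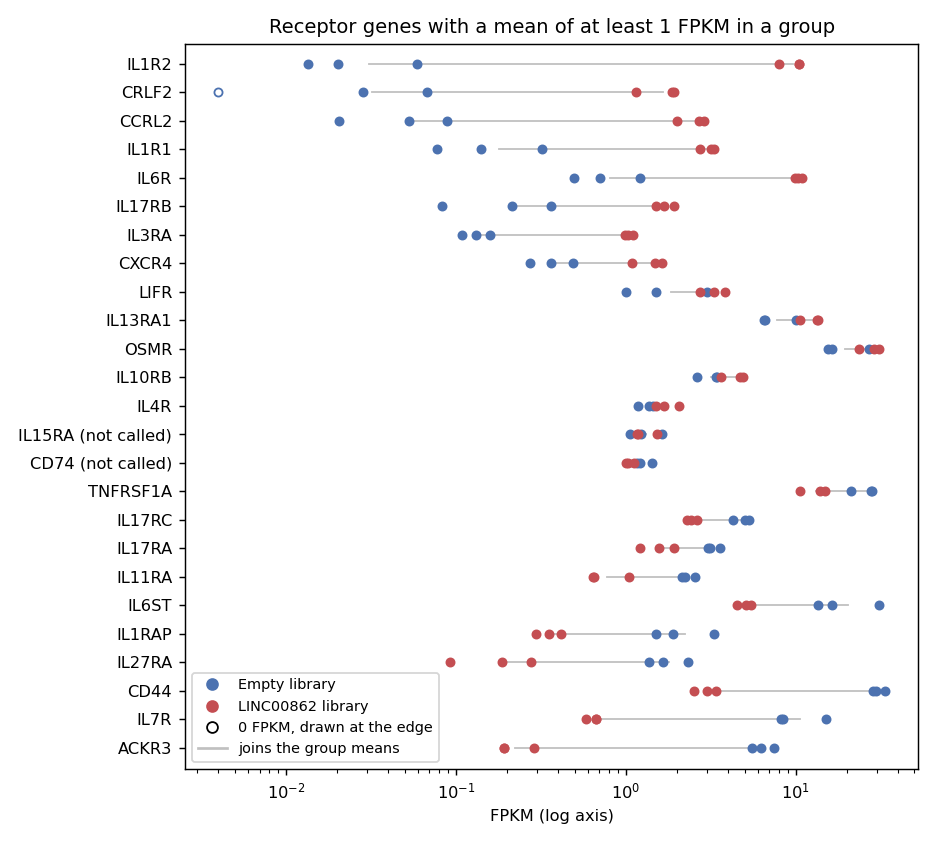
FPKM (log axis) of the 25 receptor genes with a mean of at least 1 FPKM in a group, in each Empty (blue) and LINC00862 (red) library, in order of the log2 fold change, with a grey line between the group means and a hollow point for 0 FPKM. IL1R2, CRLF2, CCRL2, IL1R1 and IL6R are higher in LINC00862, and ACKR3, IL7R, CD44 and IL27RA are lower, without overlap.

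Genes of the NF-kappaB pathway, through which the IL-1 family acts and which regulates many chemokine genes, were read from a list of 30, all tested. Of these, 9 rose, 12 fell and 9 were not called (70.0% called), with a median log2 fold change of -0.09. The balance depended on the analysis, since DESeq2 called 13 higher and 12 lower and upper quartile scaling called 13 higher and 11 lower. Among the genes of the list were 7 of 12 kinases and adaptors lower and 1 higher (58.3% and 8.33%). Over protein-coding genes, 36.9% were lower and 32.2% higher. Whether the groups within the list differ from other genes was not tested. In the group of 7 listed as inhibitors, BCL3, NFKBIZ and TNFAIP3 rose, NFKBIE and TNIP1 fell, and NFKBIA and NFKBIB were not called. BCL3 and NFKBIZ can also act as co-activators, so these counts do not measure inhibition. PTGS2, the inducible cyclooxygenase, rose from 0.305, 0.221 and 0.556 FPKM in Empty to 52.4, 52.3 and 53.6 FPKM in LINC00862 (log2 fold change 7.35, SE 0.37, adjusted p = 4.73e-07, edgeR). REL, a subunit of NF-kappaB, rose by 2.63 (SE 0.51), or by 3.55 without Empty replicate 1, BIRC3, an inhibitor of apoptosis, by 2.00 (SE 0.19), and SOD2, the mitochondrial superoxide dismutase, by 1.77 (SE 0.14). Subunits were 2 of 5 higher and 1 lower, and targets 3 of 6 higher and 2 lower. Outside the naming rule, the subunit RELA fell from a mean of 13.1 to 6.98 FPKM (log2 fold change -0.74, SE 0.15). The targets ICAM1 and TNFAIP2 fell by 0.82 (SE 0.16) and 1.24 (SE 0.16) on the log2 scale. IRAK1, a kinase of IL-1 receptor signaling, had 113, 104 and 116 FPKM in Empty and 21.7, 25.5 and 12.2 FPKM in LINC00862, and fell by 2.33 on the log2 scale (SE 0.23, adjusted p = 2.77e-05, edgeR). MAP3K14, the NF-kappaB-inducing kinase, fell by 2.00 (SE 0.19), MYD88, the adaptor of IL-1 and Toll-like receptors, by 1.93 (SE 0.16), and TNIP1, an inhibitor of the pathway, by 1.63 (SE 0.18). Ligand, receptor and adaptor of IL-1 signaling thus moved in different directions, with IL1A and IL1R1 higher and IL1RAP, MYD88 and IRAK1 lower.

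The JAK-STAT list held 24 genes, of which 7 rose, 4 fell and 13 were not called (45.8% called), with a median log2 fold change of 0.05. On scaling by library size only, 6 were called in each direction. The greatest rises at or above 1 FPKM were in inhibitors of the pathway, which made up 13 of the 24 genes. These 13 had 4 higher, 2 lower and 7 not called (46.2% called), near the share of the whole list. Among the 7 STATs, 2 rose and 2 fell. SOCS2 had 1.29, 1.14 and 1.10 FPKM in Empty and 11.9, 11.8 and 11.1 FPKM in LINC00862 and rose by 3.47 (SE 0.14, adjusted p = 1.4e-07, edgeR), PTPN6 rose by 2.33 (SE 0.22), CISH by 2.17 (SE 0.31). SOCS7 rose from a mean of 1.62 to 3.50 FPKM (adjusted p = 0.00128, edgeR). PIAS3, an inhibitor of STAT3, fell by 2.87 on the log2 scale (SE 0.18), STAT2, which acts in type I interferon signaling, by 0.86 (SE 0.16), and SOCS5 by 0.50 (SE 0.19, adjusted p = 0.0438, edgeR), a call that was lost in 10 of 14 alternatives. SOCS3, the usual feedback inhibitor of IL-6, was outside the naming rule and not called, at means of 13.6 FPKM in Empty and 13.4 FPKM in LINC00862 (log2 fold change 0.16, SE 0.13).

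Many cytokine mRNAs carry AU-rich elements and are unstable, so factors that control their decay were listed as well. Of 11 such genes, 2 rose, 6 fell and 3 were not called (72.7% called), with a median log2 fold change of -0.73. ZFP36 (tristetraprolin), which promotes the decay of AU-rich mRNAs, had 11.1, 13.1 and 11.9 FPKM in Empty and 31.4, 30.7 and 40.4 FPKM in LINC00862 and rose by 1.68 (SE 0.19, adjusted p = 7.01e-05, edgeR). ZC3H12A (regnase-1), an endonuclease of inflammatory mRNAs, rose by 1.54 (SE 0.15). Its relative in function RC3H2 fell by 1.36 on the log2 scale (SE 0.20), ZFP36L1, a paralog of ZFP36, by 1.91 (SE 0.16), and HNRNPD (AUF1) by 1.80 (SE 0.16). TIAL1, a translational silencer, fell by 2.10 on the log2 scale (SE 0.14). The shares called of the 4 lists, which were chosen with earlier results known, stand beside the 64.2% of all tested genes. They also stand beside 69.1% of protein-coding genes and 70.6% of genes at or above 1 FPKM (32.4% higher and 38.2% lower). Shares higher and lower were 41.5% and 24.5% for receptors and 30.0% and 40.0% for NF-kappaB. For JAK-STAT they were 29.2% and 16.7%, and for RNA decay 18.2% and 54.5%. Whether the lists differ from other genes was not tested.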

How the data were processed

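RNA of 6 HCCLM3 libraries was sequenced, 3 per group. The authors deposited one table with the raw count of reads per gene and the FPKM, in which fragments are scaled by transcript length and library total. The submitters' processing notes name cutadapt 1.9, HISAT2 2.0.4, UMI-tools, StringTie 1.3.4d, DESeq2, edgeR and hg38, without their roles. Per the labels, the adapters held unique molecular identifiers and the protocol marked the strand. Whether the counts were collapsed by identifier or separated by strand is not given in the sources used here.

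Counts were compared with edgeR 4.0.16 in R 4.3.3 (filterByExpr, TMM scaling, quasi-likelihood test without a block, Benjamini-Hochberg adjustment over all 20741 tested genes at 0.05, two-sided), after tests on simulated data. FPKM gave levels only. Folds against a group without counts are lower bounds from a floor of 3 counts per library, which covers counting error only, whereas standard errors come from the edgeR fit. With 3 libraries a group, no exact permutation p under 0.1 is possible for a gene, so none was computed. The members and lists were chosen with earlier results of these data known. Members with a mean of at least 1 FPKM in a group were given in full, and those called below that level by their counts. The others were only named, except CXCL6, CXCL9, IL1B and TNF, whose values were added after they were seen because close relatives changed or because other tests called them. From each list of receptors, NF-kappaB, JAK-STAT and RNA decay genes, up to 4 of the greatest rises and up to 4 of the greatest falls at or above 1 FPKM were named, with fewer where fewer were called. Other genes of these lists were named outside this rule, after their values were seen. A single gene, IL17C, that matched by name without a protein-coding transcript type was left out. Alternatives tried were scaling by upper quartiles or by library size only, DESeq2 1.42.0, limma-trend (limma 3.58.1) on log2 FPKM with pseudocounts of 0.1 or 1, no filter beyond 1 count, a test against a fold change of 2, a replicate block, and each library left out in turn. Results for some single genes are not reported here.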

Additional observations from a re-analysis of the deposited data

How the results depend on the processing

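No gene named by the rule changed direction under any of the 14 alternatives. Of 924 values over 66 such genes, 898 kept their side of the threshold, 24 no longer passed it and 2 passed it anew. Of the 36 cytokine genes among them, 30 kept their call throughout, and CCL28, IL24, LIF, CSF1, CXCL16 and MIF did not. The cytokine genes called numbered 32 in the main analysis and between 27 and 34 under the alternatives. Against a fold change of 2, which asks for more than a difference from 0, 27 were called (without CCL28, CSF1, CXCL16, LIF and MIF), and the lists held 8 lower receptors, 5 higher and 5 lower NF-kappaB genes, and 4 higher and 2 lower JAK-STAT genes. Over the 20741 tested genes the median log2 fold change was 0.11. It was 0.16 with DESeq2, 0.324 with upper quartile scaling, -0.0512 with library size only, 0.376 over every gene with a count, 0.135 with the replicate block, and between 0.0991 and 0.196 with single libraries left out.

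Libraries with the same replicate number did not deviate together (correlations of -0.0937, -0.0822 and -0.059), so the numbers are not taken as pairs. With the replicate block the same 32 cytokine genes were called, and 12098 genes in all against 13321 without it.

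Depth limits the 24 cytokine genes that did not pass the filter. When every gene with at least 1 count was tested, all 71 cytokine genes were included and the same 32 were called. None of the 24 was thus called there, TNF included. TNF passed the filter and the test without Empty replicate 1 and without LINC00862 replicate 2. CXCL6, tested but not called in the main analysis, was called without LINC00862 replicate 2.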
